A study of Aspergillus nidulans with 8 samples.

Results

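Filamentous fungi use fatty acids by oxidising them in peroxisomes and mitochondria. FarA and FarB, a pair of zinc cluster transcription factors, switch on the enzymes of this pathway in Aspergillus nidulans when fatty acids are present. FoxA is the multifunctional enzyme of peroxisomal beta-oxidation. Peroxisomes themselves are built by peroxins: Pex19 binds newly made peroxisomal membrane proteins and brings them to the organelle, Pex7 is the receptor that imports matrix enzymes with the second type of peroxisomal targeting signal, and Pex10 is a RING-type ubiquitin ligase of the membrane that helps import receptors return to the cytosol. The 6 genes described here are farA (ANID_07050 in the files, AN7050), farB (ANID_01425, AN1425), foxA (ANID_07111, AN7111), pex7 (ANID_00880, AN0880), pex10 (ANID_05681, AN5681) and pex19 (ANID_04899, AN4899), out of 10550 probes on the array. They were chosen by identifier, and each has 1 probe spotted 4 times. The gene table of RefSeq calls AN1425 farB1 and AN7111 mfp.

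The data are 8 single-colour arrays of mycelial RNA from A. nidulans grown for 16 h in submerged culture and then stressed for 0.5 h. Each array held RNA pooled from 3 cultures, with 1 array for each strain label under each condition. The reference strain THS30.3 is labelled pyrG89, AfupyrG+; pyroA+; veA+. The strain deleted for atfA, a stress response transcription factor gene, is TNJ 92.4, labelled pyrG89, AfupyrG+; pyroA4; DatfA::pyroA; veA+. Both carry pyrG89 complemented with AfupyrG and the veA+ allele, and each genotype is represented by 1 strain. The conditions were no treatment, AmB (amphotericin B, which binds ergosterol in the plasma membrane) at 2 mM, cadmium as CdCl2 at 0.2 mM, and the cell wall dye Congo Red at 10 mM. The dose units come from the labels alone and could not be checked. Precision is limited by this small number of arrays, and a lower signal from fewer cells cannot be told apart from less RNA per cell.

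The strain labels of the scanner files go against their own atfA signal. The atfA probe was above background on 0 of 4 reference-labelled arrays (signal 2.3 to 3.09) and bright on all 4 deletion-labelled arrays (3270 to 9710). In the authors' deposited value table the relation is the reverse, and each of its 8 columns resembled a scanner array of the other strain label most (r across genes 0.983 to 0.993, where the array of its own label gave 0.878 to 0.944). For 2 of these columns the treatment differed too: untreated reference in the table resembled the scanner deletion-labelled array under CdCl2, and the table's CdCl2 reference column resembled the untreated one. The scanner files are used under their labels, as reference-labelled arrays (without atfA signal) and deletion-labelled arrays (with it), and the value table is given beside the results that rest on them. Among 5 conidiation genes, signals ranged from 1.98 to 309. The wA probe was above background on every array, and the wetA probe was not on any AmB array. The abaA probe had 1 spot above background on the AmB reference-labelled array, and the brlA probe had 0 on the AmB deletion-labelled array. The 5 genes did not move one way with AmB, and levels of probes not above background are not measured sizes. On the reference-labelled arrays the scaled level, untreated and then with AmB, was -3.05 and -0.82 for wA, -6.38 and -4.95 for abaA, -4.30 and -4.90 for brlA, -3.12 and -3.61 for yA, and -6.93 and -6.74 for wetA. The deletion-labelled arrays gave -2.59 and -1.36 for wA, -6.05 and -2.48 for abaA, -5.01 and -6.68 for brlA, -3.35 and -1.67 for yA, and -5.84 and -7.05 for wetA. Their part in the AmB results was not tested.

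The first question was how the 6 genes respond to AmB. The activator gene farB rose 16.8-fold, pex19 rose 4.71-fold and pex10 rose 3.09-fold, each on both sets of arrays. The other 3 genes did not pass the test. farA and foxA had fitted changes of 0.74 ± 0.31 and 0.68 ± 0.33 on the log2 scale (± SE of the fit on 8 arrays), and pex7 stood far up on one AmB array and below background on the other. The test was limma's, fitted on all 8633 genes that were above background on at least 2 arrays, with terms for treatment, slide and strain label. With 1 array per combination, its spread is the departure of the strain labels from a common response, not a spread between cultures. It passed 3 of the 6 genes as higher and 0 as lower at a Benjamini-Hochberg adjusted p of 0.05, where 8.59% of all genes tested passed as higher and 3.15% as lower. By direction the call split was 742 higher to 272 lower over all genes, and 530 to 480 with quantile normalization. After scaling, both AmB arrays lay above the other 6 for 5 of the 6 genes, as they did for 21% of all genes tested. The median of the 6 fitted changes was 1.29, beside -0.01 over all genes tested. The genes had been chosen with earlier AmB values known, so this share is a description.

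**Figure D1:**
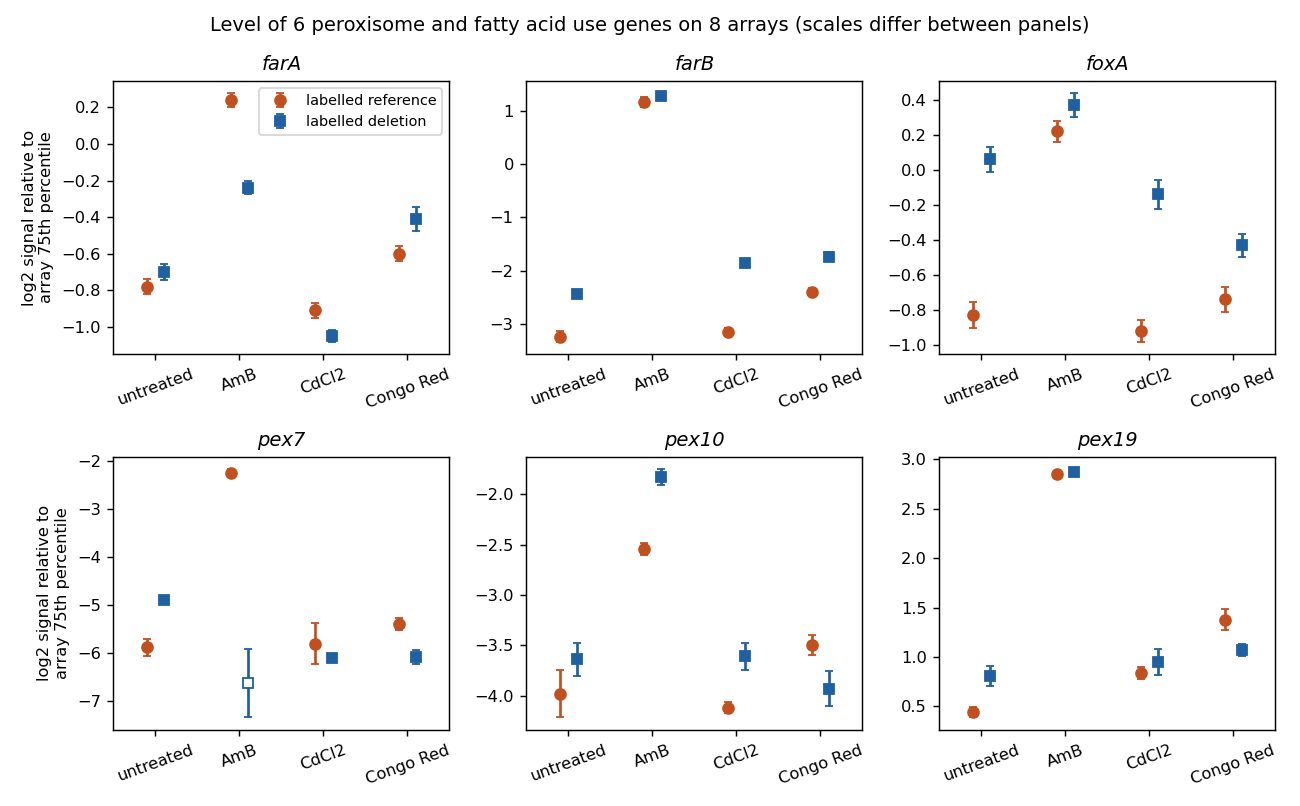
Level of each gene on the 8 arrays, as the log2 signal relative to the array's 75th percentile. Circles are reference-labelled arrays and squares deletion-labelled arrays, bars are the SD of 4 spots on the array, and the open square marks a probe not above background; both AmB arrays lie above the other 6 for every gene except pex7.

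The values of farB, which in A. nidulans acts mainly in the use of short-chain fatty acids, carry the widest change. Its processed signal on the reference-labelled arrays was 145 untreated, 753 with AmB, 133 with CdCl2 and 246 with Congo Red. On the deletion-labelled arrays it was 264, 637, 521 and 318 in the same order. All spots were above background on every array. Relative to the array's 75th percentile, the farB level was 1.17 and 1.28 with AmB, while the other 6 arrays lay from -3.24 to -1.74, so the AmB arrays did not overlap with the rest. The fitted change was 4.07 ± 0.39 on the log2 scale (limma adjusted p = 0.0157), made of 4.40 on the reference-labelled arrays and 3.74 on the deletion-labelled arrays. farB was also the only 1 of the 6 whose signal before scaling was higher on both AmB arrays than on the other 6.

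The membrane protein receptor gene pex19 had signals of 1850 untreated, 2420 with AmB, 2110 with CdCl2 and 3360 with Congo Red on the reference-labelled arrays. On the deletion-labelled arrays the signals were 2530, 1910, 3620 and 2230. Both AmB arrays were less bright as a whole, with a 75th percentile of 335.7 and 261.8 against 1062.1 to 1876 elsewhere, and the comparison rests on scaling to it. After scaling, the pex19 level was 2.85 and 2.87 on the AmB arrays, which differed by less than the spot SD, and 0.44 to 1.38 on the other 6. The fitted change was 2.24 ± 0.29 (limma adjusted p = 0.0228), with 2.41 on the reference-labelled arrays and 2.06 on the deletion-labelled arrays. The call was lost without the untreated reference-labelled array (adjusted p = 0.19) or the deletion-labelled one (adjusted p = 0.0725), in fits that kept 1 residual degree of freedom.

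For the ubiquitin ligase gene pex10 the signals were 86.4 untreated, 57.8 with AmB, 67.9 with CdCl2 and 114 with Congo Red on the reference-labelled arrays, and 116, 73.7, 154 and 69.6 on the deletion-labelled arrays. All of its spots were above background. The scaled pex10 level was -2.54 and -1.83 on the AmB arrays against -4.12 to -3.50 on the other 6, with no overlap, while the signal before scaling did overlap. The fitted change was 1.63 ± 0.29 (limma adjusted p = 0.0371), with 1.44 on the reference-labelled arrays and 1.81 on the deletion-labelled arrays. The call was lost without either untreated array (adjusted p = 0.273 without the reference-labelled one and 0.188 without the other) or either CdCl2 array (adjusted p = 0.097 for each), with quantile normalization (0.0562) and in the value table (0.0835).

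The activator gene farA did not pass. In A. nidulans FarA acts on genes for both long- and short-chain fatty acids. The farA signal was 793 untreated, 395 with AmB, 627 with CdCl2 and 850 with Congo Red on the reference-labelled arrays, and 893, 221, 906 and 800 on the deletion-labelled arrays. Its signal before scaling was thus lowest with AmB on both sets. The scaled farA level was 0.24 and -0.24 with AmB, above the -1.05 to -0.41 of the other 6 arrays. The difference did not pass (limma adjusted p = 0.166), with 1.02 on the reference-labelled arrays and 0.45 on the deletion-labelled arrays.

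The gene of the beta-oxidation enzyme, foxA, did not pass either. Its signal was 771 untreated, 392 with AmB, 625 with CdCl2 and 775 with Congo Red on the reference-labelled arrays. On the deletion-labelled arrays it was 1510, 338, 1700 and 789. The scaled foxA level was 0.22 and 0.37 with AmB and -0.92 to 0.06 elsewhere (limma adjusted p = 0.212). Its response was 1.05 on the reference-labelled arrays and 0.31 on the deletion-labelled arrays. Without the AmB deletion-labelled array the fitted change was 0.96 for farA and 1.02 for foxA. That fit rests on 1 AmB array, so no call is drawn from it. With normexp background correction the median change of all genes moved to 0.69, and farA and foxA stood at -0.04 and -0.10 relative to it, while farB, pex10 and pex19 stood at 2.81, 1.39 and 1.24.

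The import receptor gene pex7 differed most between the AmB arrays. Its signal was 23.2 untreated and 70.5 with AmB on the reference-labelled arrays, and 21.2 with CdCl2 and 30.8 with Congo Red. On the deletion-labelled arrays it was 48.4 untreated, 27.4 with CdCl2 and 15.7 with Congo Red. With AmB its 4 spots there had an averaged signal of 2.67, and 0 of them were well above background. On the AmB reference-labelled array, 4 of 4 spots were. pex7 was thus measured on 7 of 8 arrays, and its level on the AmB deletion-labelled array is known only as not above background.

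The scaled pex7 level was 3.63 higher with AmB than untreated on the reference-labelled arrays. On the deletion-labelled arrays its AmB level was set at the lowest level measured above background on that array. It was then 1.60-fold lower than untreated, if the array labelled untreated is taken as such. This is not a strict bound, since on other arrays some probes not above background were brighter than the lowest one above it. With the array labelled CdCl2 as untreated, as the value table has it, the pex7 level of -6.10 lies under the lowest level measured above background on the AmB array (-5.58), so no fall can be stated. Set against that lowest level (-5.58), pex7 was 10.0-fold higher on the AmB reference-labelled array, which again is not a strict bound. The AmB arrays also lay on different slides, so slide and strain label cannot be told apart between them. The fitted mean change of 0.96 ± 1.29 did not pass (limma adjusted p = 0.617). It was -1.39 without the AmB reference-labelled array and 3.31 without the deletion-labelled one, so single arrays decide its direction. With normexp it was 2.26 (limma adjusted p = 0.00436), and 1.58 relative to the median change of all genes. In that fit 46.4% of all genes tested were called. Both AmB arrays then lay above all others for pex7 (-2.4 and -0.87 against -4.41 to -3.72). This included the AmB array on which its probe was not above background. The difference between the sets has no residual degrees of freedom and was not tested. Of all genes tested, 0.672% were at least 2-fold higher with AmB on the reference-labelled arrays and at least 2-fold lower on the deletion-labelled arrays. In the value table the AmB response of pex7 stood at -0.51 in the reference columns and 2.00 in the deletion columns, which are the columns without atfA signal. The neighbouring genes of pex7, AN0881 and AN0879, chosen for position, had AmB responses of 0.81 and 1.71 on the reference-labelled arrays and -0.03 and 0.16 on the deletion-labelled arrays.

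**Figure D2:**
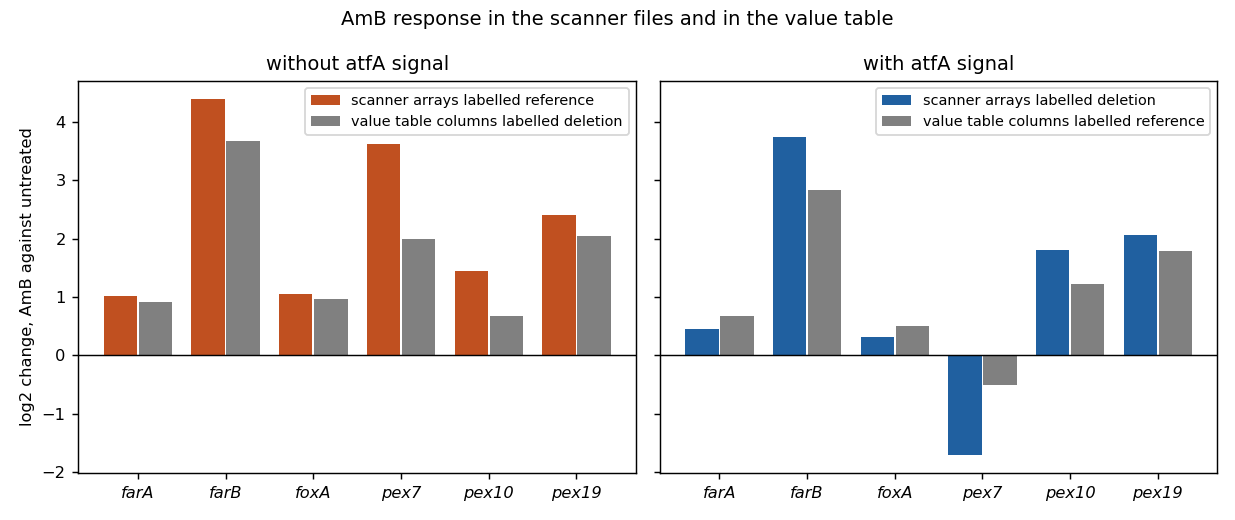
AmB response of the 6 genes on the log2 scale in the scanner files (coloured bars) and in the authors' value table (grey bars), paired by atfA signal and not by label; each bar is 1 AmB array or column minus 1 untreated one. pex7 is above 0 without atfA signal (3.63 and 2.00). With atfA signal its bars (-1.71 and -0.51) come from 1 AmB array in both sources, on which its probe was not above background, so their size was not measured.

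Since the untreated and CdCl2 labels differ between the sources for the set with atfA signal, the AmB responses were set side by side. There farB had 3.74 in the scanner files and 2.83 in the value table, and pex19 had 2.06 and 1.79. pex10 had 1.81 and 1.23, farA 0.45 and 0.68, and foxA 0.31 and 0.51. In the set without atfA signal the values were 4.40 and 3.67 for farB, 2.41 and 2.05 for pex19, and 1.44 and 0.68 for pex10. In the value table's own fit farB changed by 3.25 ± 0.31 (limma adjusted p = 0.0203) and pex19 by 1.92 ± 0.26 (adjusted p = 0.0296), while pex10 at 0.96 ± 0.28 did not pass. With the scanner arrays labelled untreated and CdCl2 exchanged in the set with atfA signal, farB stood at 3.77 ± 0.41 (limma adjusted p = 0.0163), pex19 at 2.17 ± 0.32 (0.0273) and pex10 at 1.61 ± 0.30 (0.0401).

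The second question was whether CdCl2 moved these genes. It did not pass limma's test for any of the 6, and 0 of 6 had an unadjusted p under 0.05. Over all genes tested 0% passed, with 114 genes at an unadjusted p under 0.05. The fitted changes lay between -0.56 ± 1.29 for pex7 and 0.35 ± 0.39 for farB, with a median of -0.10 beside -0.03 over all genes. On the reference-labelled arrays the difference with CdCl2 was 0.09 for farB, about the SD of its spots, and -0.14 for pex10. On the deletion-labelled arrays it was 0.61 for farB and -1.20 for pex7, and with the untreated and CdCl2 arrays of that set exchanged -0.61 and 1.20, so these directions are not settled. In the value table the difference for farB was -0.58 in the reference columns and 0.08 in the deletion columns, and for pex7 0.44 and -0.01.

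The third question was the same for Congo Red. Again 0 of 6 passed as changed (limma), where 0.0232% of all genes tested did, and 0 of 6 had an unadjusted p under 0.05. The largest fitted changes were those of farB at 0.78 ± 0.39 (limma adjusted p = 1) and pex19 at 0.60 ± 0.29 (adjusted p = 1). The difference for farB was 0.84 on the reference-labelled arrays and 0.71 on the deletion-labelled arrays, and for pex19 it was 0.94 and 0.26. The Congo Red and untreated arrays of each label lay on different slides, so slide and Congo Red cannot be told apart within a label, where the slide term fits these arrays exactly. The value table gave 0.10 and 0.48 for farB and 0.23 and 0.93 for pex19, in the reference and the deletion columns.

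**Figure D3:**
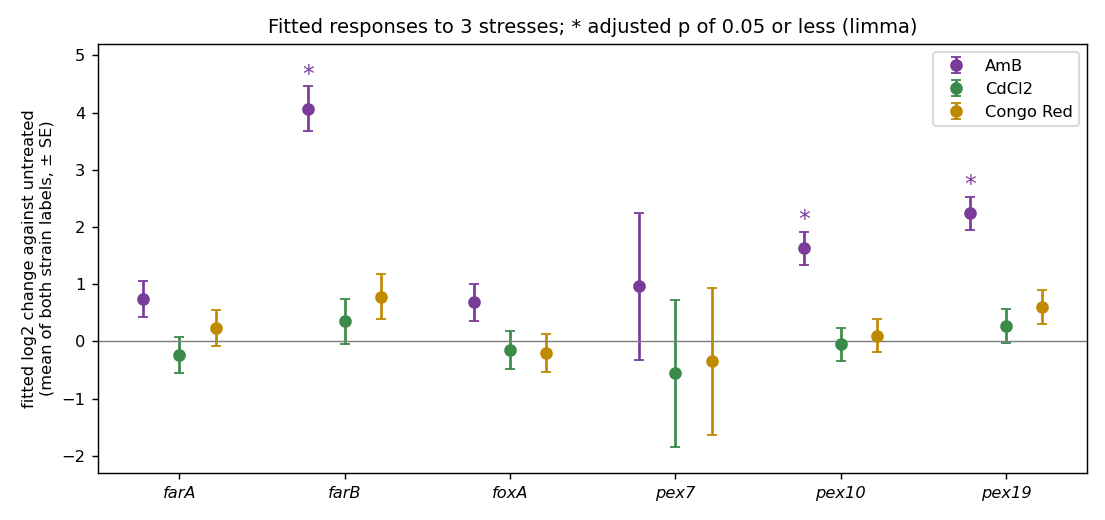
Fitted log2 change of each gene against untreated for the 3 stresses, as the mean of both strain labels with its SE from limma on 8 arrays; an asterisk marks an adjusted p of 0.05 or less. Marks stand over farB, pex10 and pex19 with AmB, and every CdCl2 and Congo Red value lies between -0.56 and 0.78. Each gene has the same SE for all 3 stresses.

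The fourth question was whether the genes differ between the strain labels. In limma 0 of 6 passed, where 1.86% of all genes tested did, and 0 of 6 had an unadjusted p under 0.05. The largest differences, as labelled reference minus labelled deletion, were 0.96 ± 1.06 for pex7 and -0.69 ± 0.32 for farB (limma adjusted p = 0.487). Without the AmB arrays the farB difference was -0.85 (limma adjusted p = 0.0505). That fit kept 1 residual degree of freedom and called 13.6% of all genes tested. farB was lower on the reference-labelled array in all 4 conditions, by -0.78 untreated, -0.12 with AmB, -1.30 with CdCl2 and -0.66 with Congo Red. foxA was lower there in all 4 as well, by -0.89, -0.15, -0.78 and -0.31. Of all genes tested, 14.4% were lower in all 4 conditions. Within each condition the strain labels lay on different slides, so strain label and slide cannot be told apart there. In the fit with its slide term, the Congo Red pair carries as much weight as the other conditions together. The differences of farA and pex19 were -0.01 ± 0.25 and 0.07 ± 0.24. In the value table, whose labels run the other way, farB and foxA stood at 0.54 and 0.41.

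Ordered from low to high over the arrays, farB, foxA, pex10 and pex19 had the AmB deletion-labelled array at the top and the AmB reference-labelled array just below it. For pex19 those arrays differed by 0.02, less than the larger spot SD of 0.032. At the low end, the untreated and CdCl2 reference-labelled arrays differed for farB by 0.09 and for pex10 by 0.14, both less than the spot SD. For pex7 the untreated, CdCl2 and Congo Red reference-labelled arrays followed each other in the order by steps within the spot SD. Spot SDs of the detected probes were at most 0.424 (pex7) and cover the scanner and slide, not the cultures. Over the 8 arrays farB and pex19 had r = 0.97, farB and pex10 0.94, and pex10 and pex19 0.94. Over the 6 arrays without AmB these were 0.60, 0.52 and 0.57. pex7 had r of 0.23 to 0.65 with the other 5 genes. These correlations describe 8 arrays that share 2 slides and the same scaling.

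The genes with the most similar profile over the 8 arrays were taken among 3648 genes above background on every array with an SD of at least 0.5. For farB these were AN12162 (r = 0.995), AN4336 (r = 0.990) and AN6095 (r = 0.983). The fitted AmB change was 3.59 ± 0.34 for AN12162 and 5.54 ± 0.58 for AN6095. Both were picked for their likeness to farB on these same arrays, so a rise with AmB was part of the choice and not a separate result. For pex19 they were AN8708 (r = 0.995), AN6744 (r = 0.993) and AN8644 (r = 0.992). The nearest to pex10 were AN5050 (r = 0.991), cbhB (AN0494, r = 0.990) and AN8901 (r = 0.989). For farA they were AN1417, AN2331 and AN9262 (r of 0.982, 0.981 and 0.971), and for foxA AN8756, AN6647 and AN7814 (r of 0.982, 0.980 and 0.974). For pex7, whose profile includes a value below background, they were AN10482, AN2995 and AN4010 (r of 0.988, 0.978 and 0.968). Over the 6 arrays without AmB, r with farB was 0.945 for AN12162, 0.947 for AN4336 and 0.816 for AN6095, and with pex19 it was 0.912 to 0.983. It was 0.857 to 0.938 for the genes nearest to pex10, 0.929 to 0.959 for farA and 0.963 to 0.982 for foxA. For those nearest to pex7 it was 0.865, 0.728 and 0.531. These 6 arrays were part of the 8 used for the choice, so these r are not a separate result either.

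The pathway around these genes was read from 19 other genes, all of which could be tested. With AmB 2 of them rose and 0 fell (limma), beside 8.59% higher and 3.15% lower over all genes tested. How many of the 19 were called depended on which array was left out. The share called over all genes moved widely in the same fits, so these counts are not read as a trait of the pathway. acuE (AN6653), the gene of malate synthase in the glyoxylate bypass, which lies in peroxisomes, rose by 2.59 ± 0.29 (adjusted p = 0.0181). It had 2.76 on the reference-labelled arrays and 2.43 on the deletion-labelled arrays. Its call was lost without the untreated reference-labelled array (adjusted p = 0.133) or the deletion-labelled one (0.0512). echA (AN5916), an enoyl-CoA hydratase gene of mitochondrial fatty acid oxidation, rose by 1.50 ± 0.30 (adjusted p = 0.0443), with 1.40 and 1.59. Its call was lost without the untreated reference-labelled array (0.371) or the deletion-labelled one (0.186), without either CdCl2 array (0.115 for each) and in the value table (0.0751). The median fitted change of the 19 was 0.57.

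None of the other 9 peroxin genes passed with AmB (0 of 9, limma), and their fitted changes had a median of 0.22. With 8.59% of all genes tested called higher and 3.15% lower, 0 of 9 is not read as a trait of these genes. Among them pex13 (AN1511), a docking protein gene of the import pore, stood highest at 1.38 ± 0.37 (adjusted p = 0.0731). The export ATPase gene pex6 (AN2925) was at 0.14 ± 0.31 and the docking gene pex14 (AN10610) at 0.22 ± 0.30. The level of hexA (AN4695), whose protein forms the Woronin body, a peroxisome-derived plug of septal pores, was at -0.05 ± 0.29.

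**Figure D4:**
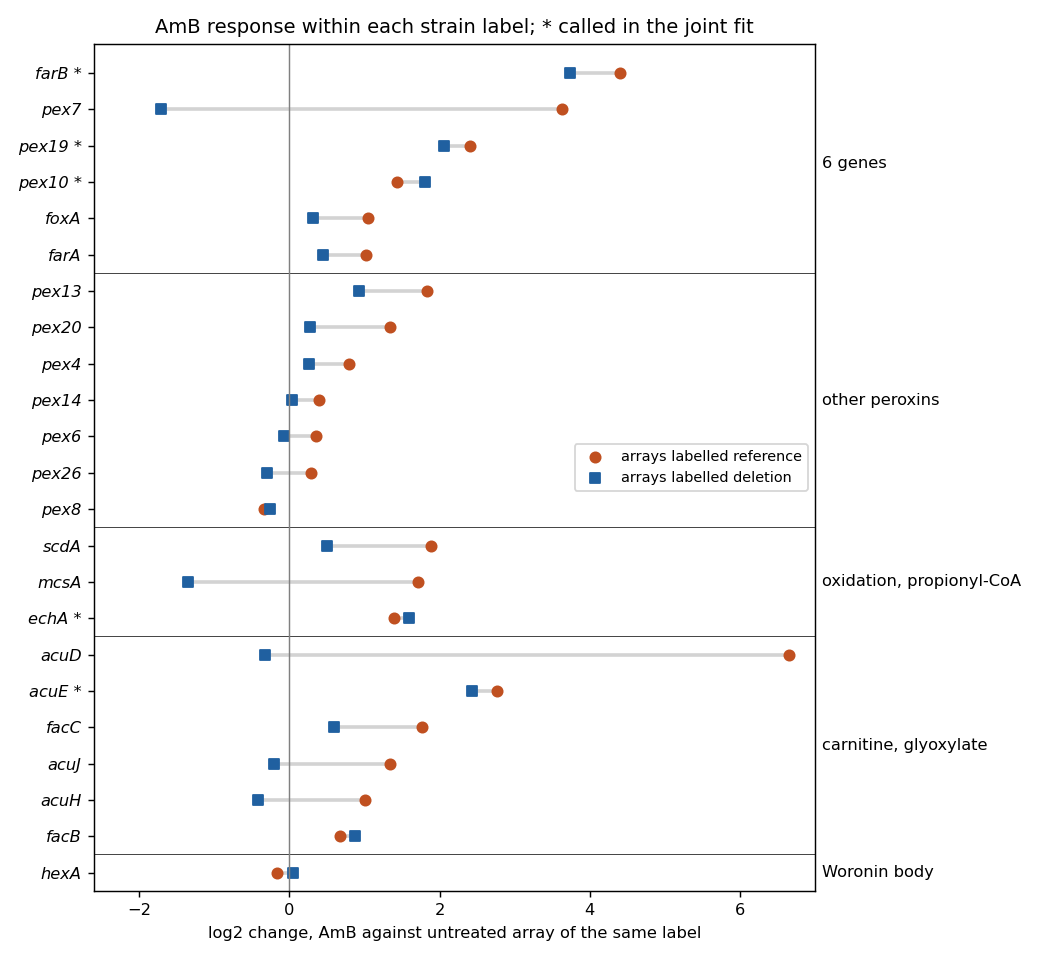
AmB response on the log2 scale within each strain label for the 6 genes and other genes of the pathway; each point is 1 AmB array minus 1 untreated array and an asterisk marks a call in the joint fit. farB, pex10, pex19, echA and acuE have both points well above 0, while pex7 and acuD have theirs far apart.

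The list for the carnitine shuttle and glyoxylate bypass holds 6 genes, with the regulator gene facB (AN0689) among them. All 6 lay above 0 with AmB on the reference-labelled arrays (median 1.55) and 3 of 6 on the deletion-labelled arrays (median 0.20). Of all 8633 genes tested, 4283 and 4330 did. acuD (AN5634), isocitrate lyase, the first enzyme of the bypass, had 6.65 and -0.33, with signals of 202 untreated and 4980 with AmB on the reference-labelled arrays and of 1560 and 224 on the deletion-labelled arrays. Its fitted mean of 3.16 ± 1.86 did not pass (limma adjusted p = 0.278). The value table gave -0.99 in the reference columns and 5.62 in the deletion columns. Of the 6 genes in the list, 3 lay above 0 in its reference columns (median 0.02) and 6 in its deletion columns (median 1.31). There 3710 and 3379 of all 8633 genes tested lay above 0. Over all 19 genes the median AmB response was 1.34 on the reference-labelled arrays and 0.05 on the deletion-labelled arrays, beside -0.01 and 0 for all genes tested. In the value table it was 0.32 in the reference columns and 0.84 in the deletion columns. The difference between the sets was not tested.

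With CdCl2, Congo Red and between strain labels 0 of the 19 passed (limma), and 0, 0 and 1 of them had an unadjusted p under 0.05. Over all 8633 genes tested, 0%, 0.0232% and 1.86% passed, and 114, 259 and 1121 had an unadjusted p under 0.05. These counts are thus not read as a trait of the pathway. Without a call, the largest fitted changes with CdCl2 were those of mcsA (AN6650), the methylcitrate synthase gene that clears propionyl-CoA, at -1.58 ± 1.04, and acuD at 0.56 ± 1.86. The mcsA probe was not above background on the CdCl2 reference-labelled array, so the size of its change was not measured there and its rank is not settled. The deletion-labelled part of these CdCl2 changes also rests on untreated and CdCl2 labels that differ between the sources. With Congo Red they were mcsA at -0.85 ± 1.04 and acuJ (AN6279), a carnitine acetyltransferase gene, at -0.61 ± 0.56. Here too a gene has the same SE for all 3 stresses, AmB among them. Between strain labels acuE stood at -1.42 ± 0.24 (limma adjusted p = 0.0754) and acuD at -0.93 ± 1.52.

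Of the 12 genes next to the 6 on the chromosomes, chosen for position, 11 were tested. With AmB 1 of them fell, AN7049 beside farA, by 1.84 on the log2 scale ± 0.38 (limma adjusted p = 0.0466), and none rose, where 3.15% of all genes tested fell and 8.59% rose. The largest fitted change was that of AN7110 beside foxA, at 3.88 ± 0.98 (adjusted p = 0.0659), whose probe was above background on the AmB and CdCl2 deletion-labelled arrays only. The neighbours of pex19, AN4900 and AN4898, stood at 0.30 ± 0.28 and 0.50 ± 0.41. Those of farB, AN1424 and AN1426, stood at -1.73 ± 0.54 and 0.81 ± 0.52, with AN1424 not above background on the AmB reference-labelled array.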

How the data were processed

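Total RNA of 3 pooled cultures per array was labelled with Cy3, per the labels' protocols. Agilent Feature Extraction, in version 12.0.3.1 as the submitters' processing notes give it, wrote the scanner files the authors deposited; their processed signal is a background-subtracted intensity, per the file headers. The deposited value table is on a log2 scale, with no normalization given in the sources used here. No genome build is named, so no coordinates are given, and no sequences were used. Control spots and outlier-flagged spots were left out, the 4 spots of each probe were averaged as log2 signals, and the 75th percentile of an array was then subtracted. A probe counted as above background where the scanner's flag held for at least as many of its spots as not. Of 10550 identifiers, 9697 matched the RefSeq table of assembly ASM1142v1.

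limma 3.58.1 in R 4.3.3 was fitted with strain label, treatment and slide, which leaves 2 residual degrees of freedom. The spread is the departure from additivity between strain labels. The method was tested on simulated data. The slide was read from the barcode in the files; all arrays had 1 scan date. The 6 genes and the pathway lists were chosen with earlier results of these data known. Besides them the text names, for each of the 6, the 3 genes of most similar profile, and of the lists the called genes or the 2 of largest change; other named peroxins, hexA, acuD, the conidiation genes and the neighbours were added for their role or position after values were seen. The peroxisomal catalase candidate AN5918 was dropped because the table gives it another symbol, and 9 list symbols were not matched. Some list genes are not reported here by name. The files hold no mean spot signal, so normexp used the median signal. The alternatives were no slide term, quantile normalization, normexp, the value table, other filters, flagged spots kept, no AmB arrays and each array left out; scaling to the median, and exchanging the untreated and CdCl2 arrays labelled deletion, were chosen after seeing the data.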

Additional observations from a re-analysis of the deposited data

Results flagged for a closer look

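For 6 of the 18 responses of the 6 genes to a stress, the single reference-labelled pair of arrays moved one way and the pair labelled deletion the other. With AmB, 4283 of all 8633 genes tested were above 0 on the reference-labelled arrays, 4330 on the deletion-labelled arrays and 3125 on both. Opposite directions with AmB were thus not particular to these genes. None of the differences between the pairs was tested. They rest on the labels of the untreated and CdCl2 arrays labelled deletion, which the value table has the other way round. With those 2 arrays exchanged the count is 7 of 18, in part for other responses. As labelled, pex7 did so in all 3 stresses, with 3.63 and -1.71 on the log2 scale for AmB (the second against a probe not above background), 0.08 and -1.20 for CdCl2, and 0.49 and -1.18 for Congo Red, the arrays labelled reference first. pex10 had -0.14 and 0.04 for CdCl2 and 0.48 and -0.29 for Congo Red. foxA had 0.09 and -0.49 for Congo Red. Exchanged, the arrays labelled deletion gave 1.20 and 0.02 for pex7 with CdCl2 and Congo Red and -0.04 for pex10 with CdCl2, which no longer oppose the others. farA, farB, foxA and pex19 then opposed them with CdCl2, at 0.35, -0.61, 0.20 and -0.14. The CdCl2 values of pex7 and pex10 on the arrays labelled reference, and that of pex10 on those labelled deletion, were smaller than the spot SD on at least 1 of their arrays.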

How the results depend on the processing

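With AmB, farB kept its direction under every alternative run (log2 changes 3.25 to 4.53), and its limma call with all other processing. Not all of these runs were separate checks. Leaving out either Congo Red array left the AmB fit unchanged, and leaving out either CdCl2 array gave the same AmB fit. The number of the 6 genes called was 2 to 4 with other processing. It was 1 to 6 with an array left out: 1 without either untreated array, when 138 genes in all were called without the one labelled reference and 465 without the other, and 6 without the AmB array labelled deletion, when 51.2% of all genes were. In such a fit the lone array of a condition is assumed to vary like the others. The counts for CdCl2, Congo Red and strain label were 0 throughout. Without the AmB arrays the strain label difference of farB was -0.85 (limma adjusted p = 0.0505). That fit called 13.6% of all genes for strain label and 0.961% for Congo Red. Values of genes not called changed sign under some settings, and their causes were not tested. With the value table the CdCl2 changes were 0.07 (farA), -0.25 (farB), 0.05 (foxA) and 0.22 (pex7), the Congo Red change of pex10 was -0.09, and the strain label differences were 0.54 (farB), 0.41 (foxA), -0.49 (pex7), 0.10 (pex10) and -0.06 (pex19). With the untreated and CdCl2 arrays labelled deletion exchanged, which was added after seeing the data, 3 of the 6 genes were called with AmB, the CdCl2 changes were 0.11 (farA), -0.26 (farB), 0.06 (foxA) and 0.64 (pex7), and the Congo Red change of pex7 was 0.25. With quantile normalization pex10 was at 0.05 for CdCl2 and farA at 0.01 for strain label. With normexp pex7 was at 0.04 for Congo Red and pex10 at 0.10 for strain label. For strain label, the fit without a slide term gave 0.08 (farA) and -0.05 (pex19), median scaling 0.01 (farA), and the fit without AmB arrays 0 (pex10). With each array left out, the ranges that crossed 0 were -1.39 to 3.31 for pex7 with AmB; -0.08 to 0.77 (farB), -0.36 to 0.06 (foxA), -2.21 to 1.10 (pex7) and -0.19 to 0.08 (pex10) with CdCl2; -0.41 to 0.01 (foxA), -2 to 1.31 (pex7) and -0.38 to 0.57 (pex10) with Congo Red; and -0.09 to 0.18 (farA), -0.52 to 0 (pex10) and -0.17 to 0.12 (pex19) for strain label. All genes called with AmB numbered 1014, against 1994 without a slide term, 4003 with normexp and 3323 with no filter on dim probes; the median change of all genes moved to -0.27 with quantile normalization, 0.69 with normexp, -0.20 in the value table and 0.30 with no filter. No paired analysis was possible because each combination of strain label and condition has 1 array and no replicate number; the fit compares treatments within strain labels through its strain label term. Dim signal, from 2.67 to 70.5, limits the values of pex7.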
